A study of Mus musculus with 14 samples.

Results

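Messenger RNA of 10 genes that encode enzymes of glycolysis and the lactate dehydrogenase subunits was followed across 14 libraries of mouse left ventricle. The genes are Pfkm, Aldoa, Tpi1, Pgk1, Pgam2, Eno1, Eno3, Pkm, Ldha and Ldhb, taken by symbol from a table of 24054 genes, and all 10 were found and passed the filter on low counts. The animals carry the genotype written C56Bl6 in the labels, and neither age nor sex is given in the sources used here. The 5 control libraries are labelled with a control diet for 10 weeks. The 4 HFpEF-scr libraries are labelled with 6 weeks of a High-Fat + L-NAME diet and 4 weeks of AAV-scramble-sh, an adeno-associated virus with a scrambled hairpin. The 5 libraries labelled HFpEF-FoxO1-sh share that diet and its duration but carry AAV-FoxO1-sh for 4 weeks, a hairpin aimed at the transcription factor gene Foxo1. L-NAME blocks nitric oxide synthases, and together with fat-rich food it is used to model heart failure with preserved ejection fraction (HFpEF). No virus is named for the controls, so diet and virus cannot be told apart in a comparison with them, and the serotype and promoter of the virus are not given in the sources used here.

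Glycolysis splits glucose into pyruvate in the cytosol, and lactate dehydrogenase then exchanges pyruvate and lactate while recycling NADH. The adult heart burns mainly fatty acids and also takes up lactate from blood. Several steps exist as isoenzymes from separate genes. Eno3 encodes the enolase of muscle and Eno1 the widely expressed enolase, while Ldhb encodes the heart-type subunit of lactate dehydrogenase and Ldha the subunit common in skeletal muscle and in tissue short of oxygen. Many genes of the pathway are known targets of hypoxia-inducible factors (HIF).

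Levels are given as counts per 1000000 (CPM) after scaling of the libraries, and differences as log2 fold changes ± standard error, positive where the group named first is higher. A gene was called changed at a Benjamini-Hochberg adjusted p under 0.05 over 13588 genes in edgeR's quasi-likelihood test. Libraries held between 13174118 and 21247155 counts. Nothing in the labels states that replicates came from separate animals, and p-values reflect the spread among these libraries only, which may be technical. Foxo1 itself ran from 42.2 to 47.0 CPM in control, from 40.1 to 48.3 in HFpEF-scr and from 39.3 to 46.0 under the HFpEF-FoxO1-sh label, with a log2 fold change of -0.04 ± 0.06 between the last 2 (adjusted p = 0.78). The RNA thus does not set these libraries apart by the targeted gene, and every direction given for them rests on their labels. Of the 12 skeletal muscle markers 9 were under 1 CPM in every library, all 8 adipocyte markers were too, and the 12 cardiomyocyte markers summed to between 103744 and 126032 CPM.

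The 250 bases before the annotated start are printed for the members that were called changed, Eno3, Ldhb and Pgam2. They are also printed for Ldha, the partner of Ldhb, which was called in no comparison. Sequences are from RefSeq on GRCm38.p6, 5′ to 3′ along the gene. Capitals mark ACGTG or GCGTG on either strand, the core letters of sites that HIF proteins bind.
Eno3, chr11:70656926-70657175, plus strand: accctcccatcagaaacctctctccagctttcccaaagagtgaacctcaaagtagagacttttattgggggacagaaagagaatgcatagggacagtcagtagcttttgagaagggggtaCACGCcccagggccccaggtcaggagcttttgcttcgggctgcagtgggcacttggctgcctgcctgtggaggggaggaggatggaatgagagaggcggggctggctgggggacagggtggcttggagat
Ldhb, chr6:142507958-142508207, minus strand: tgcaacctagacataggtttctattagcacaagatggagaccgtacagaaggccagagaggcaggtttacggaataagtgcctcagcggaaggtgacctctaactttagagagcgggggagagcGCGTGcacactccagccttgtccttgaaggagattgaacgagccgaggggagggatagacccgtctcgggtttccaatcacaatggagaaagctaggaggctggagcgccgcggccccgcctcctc
Pgam2, chr11:5803797-5804046, minus strand: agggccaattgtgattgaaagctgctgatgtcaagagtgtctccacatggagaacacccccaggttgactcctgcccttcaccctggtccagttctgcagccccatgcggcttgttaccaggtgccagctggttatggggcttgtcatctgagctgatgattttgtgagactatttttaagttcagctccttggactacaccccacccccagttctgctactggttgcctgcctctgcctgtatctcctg
Ldha, first start, chr7:46845554-46845803, plus strand: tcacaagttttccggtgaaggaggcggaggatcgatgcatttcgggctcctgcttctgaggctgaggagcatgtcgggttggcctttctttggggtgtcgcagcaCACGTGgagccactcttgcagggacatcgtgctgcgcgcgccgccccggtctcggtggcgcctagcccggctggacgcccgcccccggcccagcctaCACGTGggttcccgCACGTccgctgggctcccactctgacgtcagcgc
Ldha, second start, chr7:46846832-46847081, plus strand: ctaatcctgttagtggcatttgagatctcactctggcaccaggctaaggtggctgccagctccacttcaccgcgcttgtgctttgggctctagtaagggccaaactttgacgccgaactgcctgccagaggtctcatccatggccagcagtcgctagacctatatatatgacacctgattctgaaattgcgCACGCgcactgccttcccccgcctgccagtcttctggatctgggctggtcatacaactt
The first Ldha window held 5 matches, of which 4 come as overlapping pairs within CACGTG, and the second held 1. Eno3 and Ldhb had 1 match each, 130 and 126 bases before the start, and Pgam2 had none. Over the 19 windows of the 10 members, some of which overlap, 14 held either core, against 38.6% of all 32851 windows. The FoxO core GTAAACA was in none of the 19 windows on either strand and in 3.17% of all windows. With a share that low, 19 windows of any genes can well hold none, so this does not set the members apart. These are matches of letters and do not show that a factor binds there.

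Within the control ventricles, Aldoa and Ldhb were the most abundant members per kilobase of principal transcript. Aldoa, the aldolase of muscle, had 1482 ± 46.4 CPM per kilobase (SD, n = 5) and Ldhb 1483 ± 40.0, a difference smaller than the spread between libraries. Eno3 followed at 703 ± 10.4 CPM per kilobase. Pkm, pyruvate kinase, stood at 589 ± 13.4 and Pgam2, the phosphoglycerate mutase of muscle, at 561 ± 28.1, and the ranges of these neighbours overlapped. Pfkm, the muscle phosphofructokinase that commits sugar to glycolysis, stood at 478 ± 21.4 CPM per kilobase. Triosephosphate isomerase Tpi1 had 388 ± 9.53, Ldha 322 ± 11.9 and phosphoglycerate kinase Pgk1 178 ± 9.11. Eno1 was lowest at 56.5 ± 4.12 CPM per kilobase. This order depends on the length used: per kilobase of all annotated exons Aldoa fell behind Ldhb and Eno3, at 604 against 1232 and 632. All 10 members together held 1.03% of the counts in control, 0.930% in HFpEF-scr and 0.963% under the HFpEF-FoxO1-sh label.

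**Figure D1:**
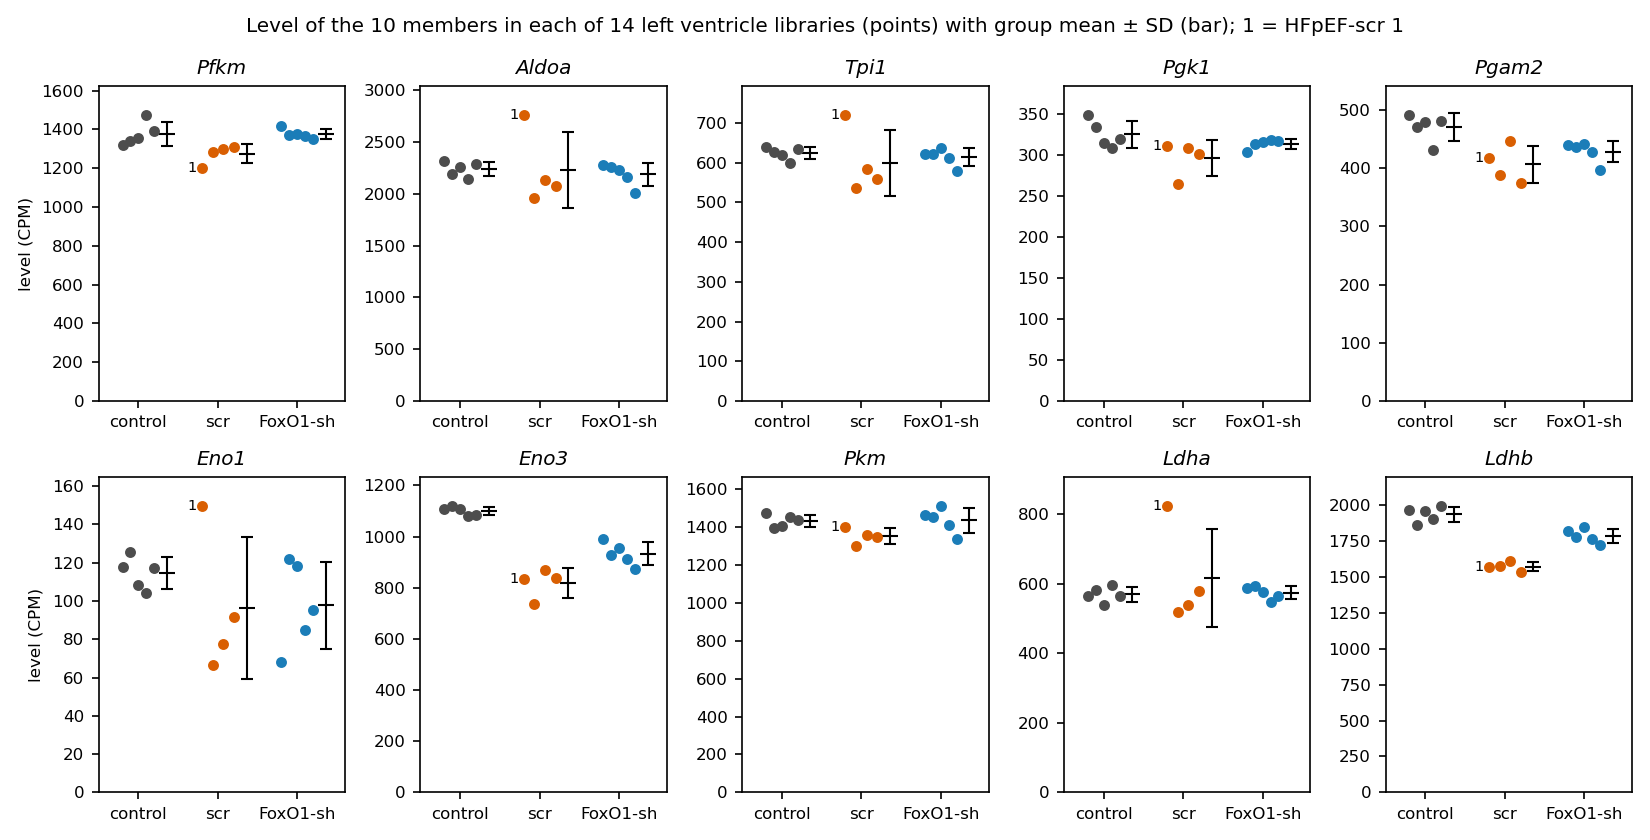
Level of each member in counts per 1000000 (CPM, linear axis from 0) in the 14 libraries, by group, with the group mean ± SD beside the points; scr and FoxO1-sh stand for HFpEF-scr and HFpEF-FoxO1-sh, and 1 marks HFpEF-scr 1. The 5 controls lie above all 4 HFpEF-scr libraries for Eno3 and Ldhb, while HFpEF-scr 1 is the highest library for Aldoa, Tpi1, Eno1 and Ldha.

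One library has to be set apart first. HFpEF-scr 1 had the highest level of all 14 libraries for 4 of the 10 members. Its Ldha was 823 CPM, 50.6% above the mean of the other 3 HFpEF-scr libraries, its Aldoa 2765 CPM, 34.7% above, and its Tpi1 721 CPM, 28.9% above. Its Eno1, at 149.5 CPM, was 90.6% above. For Ldhb it was level with the others, at 0.102% below their mean, and for Eno3 2.45% above. Outside the members the same library was highest for Egln3, a HIF target that marks HIF for destruction, with 255 CPM against 77.7 to 115 in the other HFpEF-scr libraries. The 9 red cell genes found summed to 6044 CPM in it, against 539 to 1698 in the other 13 libraries. The part of red cells or of any other cause in these values was not tested. Results of comparisons that include HFpEF-scr and rest on this library are given with and without it. HFpEF-FoxO1-sh against control also draws its spread from all 14 libraries, and it was not refitted without this one.

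**Figure D2:**
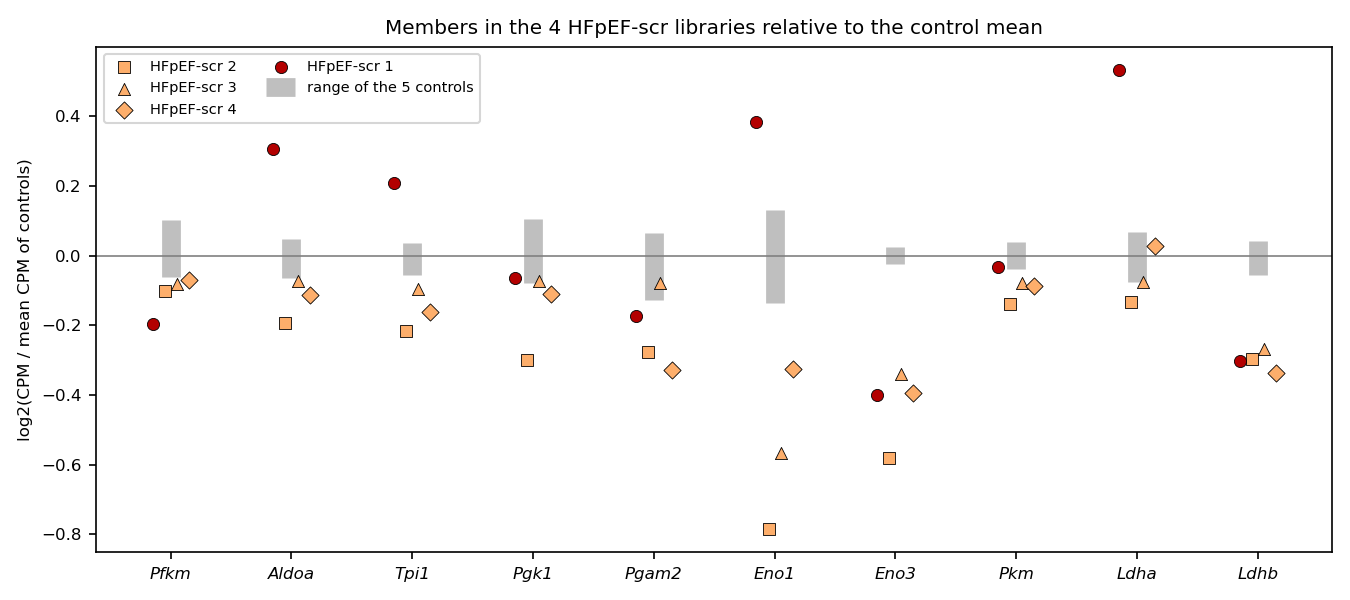
Members in the 4 HFpEF-scr libraries as log2 of CPM over the mean CPM of the controls, with the range of the 5 controls as grey bars. HFpEF-scr 1 lies above the controls for Aldoa, Tpi1, Eno1 and Ldha and within the other HFpEF-scr libraries for Eno3.

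HFpEF-scr against control asks how the members differ between ventricles under the diet with a scrambled hairpin and those on the control diet. Eno3, Ldhb and Pgam2 fell, no member rose, and 9 of 10 estimates lay below 0. The call of 3 of 10 members stands beside 7.37% of all genes tested, and the 3 falls beside 3.70% of all genes called lower and 3.66% called higher. The median of the members was -0.12 on the log2 scale, against 0.0016 over all genes.

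Eno3, which converts 2-phosphoglycerate to phosphoenolpyruvate in muscle, lies on chromosome 11 at 70657202 to 70662513 of GRCm38, plus strand. In controls 1 to 5 it stood at 1106, 1119, 1107, 1082 and 1083 CPM. In HFpEF-scr 1 to 4 it stood at 833, 735, 868 and 837 CPM, with the highest of these well below the lowest control. The means were 1099 ± 16.2 (SD, n = 5) and 818 ± 57.4 CPM (SD, n = 4). The log2 fold change of Eno3 was -0.43 ± 0.05 (edgeR, adjusted p = 7.9e-05), a change of -25.6% with a 95% interval from -30.5% to -20.2%.

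Ldhb lies on chromosome 6 at 142490249 to 142507957, minus strand. Controls 1 to 5 had 1961, 1859.5, 1956, 1904 and 1991 CPM of it, and HFpEF-scr 1 to 4 had 1569, 1576, 1607 and 1530.0 CPM. The HFpEF-scr libraries were close to each other and all under the controls. With means of 1934 ± 52.2 (SD, n = 5) and 1571 ± 31.6 CPM (SD, n = 4), Ldhb fell by 0.30 on the log2 scale with an SE of 0.03 (edgeR, adjusted p = 7.96e-05), or -18.8% with an interval from -22.7% to -14.7%. The falls of Eno3 and Ldhb were called under each of the 20 alternatives run for this comparison, with adjusted p up to 0.00139 and 0.00206.

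Pgam2, on chromosome 11 at 5801640 to 5803733, minus strand, had 492, 471, 479, 431 and 482 CPM in controls 1 to 5 and 417, 389, 446 and 376 CPM in HFpEF-scr 1 to 4. Here the groups overlapped, with HFpEF-scr 3 above control 4. Pgam2 fell by 0.21 on the log2 scale with an SE of 0.05 (edgeR, adjusted p = 0.0273). That call ended in 8 of 20 alternatives, 5 of them without 1 library, with adjusted p up to 0.0844 among these 5 (without HFpEF-scr 4) and 0.138 with the early response score below as a covariate.

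The other 7 members were not called. Pfkm ran from 1319 to 1476 CPM in control and from 1201 to 1312 CPM in HFpEF-scr, with no overlap, and its log2 fold change was -0.11 ± 0.04 (adjusted p = 0.092). In 3 of 10 members, Pfkm, Eno3 and Ldhb, the groups did not overlap, against 8.93% of all genes. Pgk1, the first step of glycolysis that returns ATP, gave -0.13 ± 0.05 (adjusted p = 0.112) and Pkm, the last such step, -0.08 ± 0.04 (adjusted p = 0.195). Pfkm shares 10.7% and Pkm 15.3% of its exon bases with other annotated genes. Aldoa, Tpi1, Eno1 and Ldha, the members in which HFpEF-scr 1 was highest, gave -0.0054 ± 0.08, -0.06 ± 0.07, -0.25 ± 0.20 and 0.11 ± 0.10, none called.

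Without HFpEF-scr 1 the same test called 5 falls, those of Tpi1, Pgam2, Eno1, Eno3 and Ldhb, where 8.00% of all genes were called. Tpi1 then gave -0.16 (adjusted p = 0.0262) and Eno1 -0.55 (adjusted p = 0.0392). Both are among the members whose high values set that library apart, so leaving it out was bound to lower their estimates. Ldha turned from 0.11 to -0.06 (adjusted p = 0.435), and Aldoa moved to -0.13 (adjusted p = 0.0955).

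Cell type markers moved in this comparison as well. The 12 cardiomyocyte markers summed to 118158 to 126032 CPM in control and 103744 to 114990 CPM in HFpEF-scr, 11 of 12 lay below 0 with a median of -0.15, and 5 were called lower, or 3 without HFpEF-scr 1. All 12 fibroblast markers lay above 0 with a median of 0.21, 3 called, and their sum was 2052 to 2448 CPM in control and 2230 to 2788 CPM in HFpEF-scr. In pieces of ventricle, fewer muscle cells and less RNA per muscle cell cannot be told apart. Genes of the early response, which follow stimuli and tissue handling within minutes, were above 0 for 24 of 24 tested, with a median of 0.75 and 5 called. Of 10 mural cell markers 3 were called higher, with a median of 0.25 over the list, and all 10 summed to 1218 to 1375 CPM in control and 1322 to 1423 CPM in HFpEF-scr. The 8 red cell genes tested were all above 0 with a median of 0.97 and none called, but without HFpEF-scr 1 all 8 were below 0 with a median of -0.69, and 1, Slc4a1, was called lower. No fit had a red cell covariate. With the mean level of the early response genes as a covariate, Eno3 gave -0.36 (adjusted p = 0.000972) and Ldhb -0.30 (adjusted p = 0.00147).

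**Figure D3:**
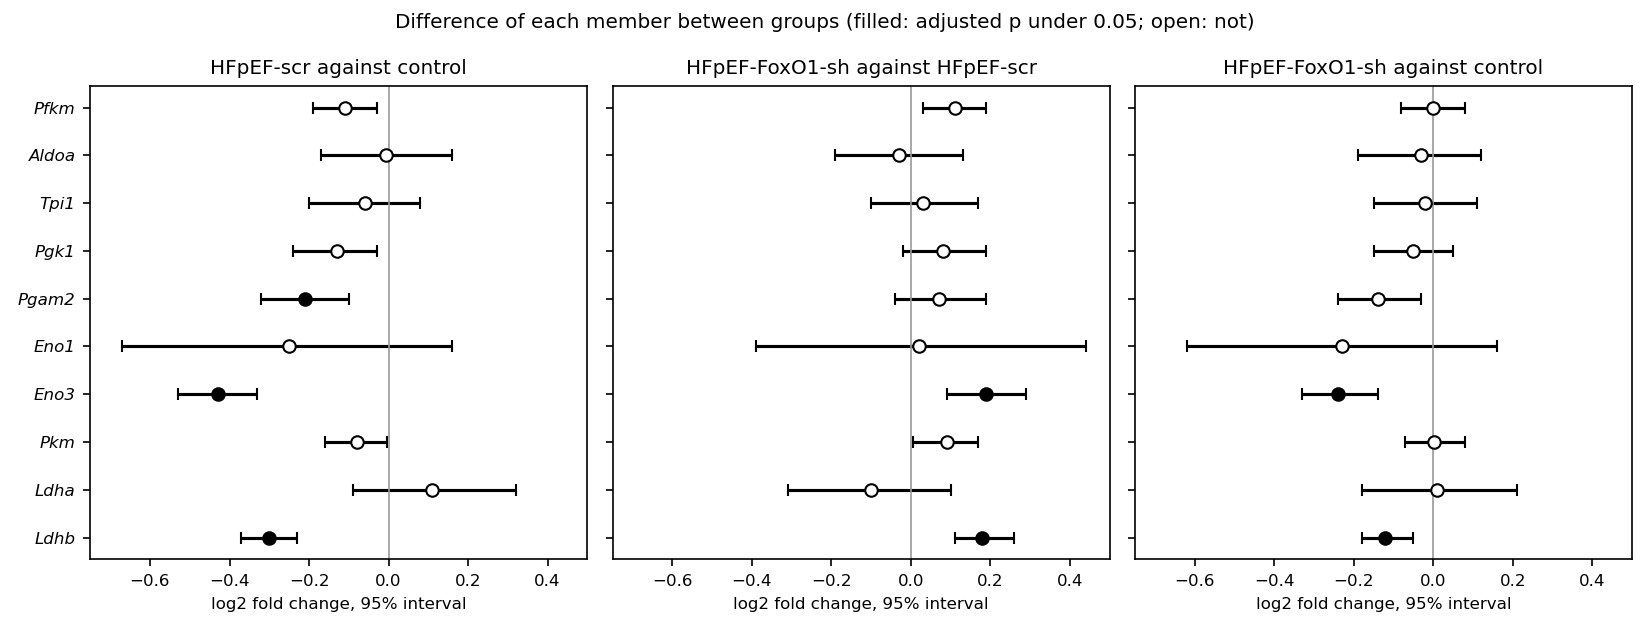
Log2 fold change of each member in the 3 comparisons with its 95% interval from edgeR, filled where the adjusted p was under 0.05. Eno3 and Ldhb are filled in all 3 panels, below 0 against control and above 0 in HFpEF-FoxO1-sh against HFpEF-scr, and Eno1 has the widest intervals.

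Both HFpEF groups had the same diet, and their comparison addresses the hairpin, as labelled. Eno3 and Ldhb were higher under the HFpEF-FoxO1-sh label, and no member fell. These 2 of 10 members stand beside 3.58% of all genes called, 1.32% higher and 2.26% lower, with a median of 0.08 for the members and 0.0044 for all genes. Libraries 1 to 5 labelled HFpEF-FoxO1-sh had 1818, 1778, 1847, 1760.2 and 1723 CPM of Ldhb, all above the HFpEF-scr libraries. Ldhb rose by 0.18 ± 0.03 (edgeR, adjusted p = 0.00872), an increase of 13.7% with an interval from 8.24% to 19.4%. It was called in each of the 9 refits without 1 library, with adjusted p up to 0.0312. Of all 20 alternatives 1 ended the call, that without HFpEF-scr 1 and 2 together (adjusted p = 0.0652).

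Eno3 had 992, 927, 955, 914 and 874 CPM in libraries 1 to 5 labelled HFpEF-FoxO1-sh. The lowest of these was just above the highest HFpEF-scr library, at 868 CPM. Eno3 rose by 0.19 ± 0.05 (edgeR, adjusted p = 0.0383), an increase of 13.9% with an interval from 6.34% to 22.0%. That call ended in 6 of 9 refits without 1 library, with adjusted p up to 0.0957 without HFpEF-FoxO1-sh 1 and 0.0617 without HFpEF-scr 1. Over all 20 alternatives, these refits among them, it ended in 12, with adjusted p up to 0.24 without HFpEF-scr 1 and 2 together. With the early response covariate Eno3 gave 0.13 (adjusted p = 0.148) and Ldhb 0.18 (adjusted p = 0.0363).

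Among the other 8 members Pfkm, at 1350 to 1417 CPM, showed no overlap with HFpEF-scr, with 0.11 ± 0.04 (adjusted p = 0.116). Groups did not overlap in 3 of 10 members, Pfkm, Eno3 and Ldhb, against 8.34% of all genes. The same HFpEF-scr libraries enter HFpEF-scr against control, so low values in them act on both comparisons. That the same 3 members recur, with opposite signs, is thus not a second observation. The remaining estimates ran from -0.10 for Ldha to 0.09 for Pkm. Ldha and Aldoa changed sign without HFpEF-scr 1, to 0.07 and 0.09, and neither was called with or without it. In this comparison 9 of 12 cardiomyocyte markers lay above 0 with a median of 0.05 and none called, all 12 fibroblast markers lay below 0 with a median of -0.30, 3 called, and 23 of 24 early response genes lay below 0, with a median of -0.74 and 4 called. All 9 macrophage markers lay below 0 as well, with a median of -0.36 and 2 called, Mrc1 and Lyz2, and 9 of 10 mural markers, with a median of -0.19 and none called. Of 10 endothelial markers 8 lay below 0, with a median of -0.16 and 1 called, Pecam1. The 8 red cell genes had a median of -1.32, and of 0.40 without HFpEF-scr 1, with none called in either. The part of these in the members' values was not tested beyond the covariate above.

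HFpEF-FoxO1-sh against control shares its libraries with both comparisons above, so its values are set beside theirs without a count of agreement. Eno3 and Ldhb fell and no member rose, which is 2 of 10 members beside 13.0% of all genes called, 6.28% lower and 6.68% higher. The median of the members was -0.04, against -0.003 for all genes. Eno3 averaged 932 ± 44.5 CPM (SD, n = 5) under the HFpEF-FoxO1-sh label, between the 818 CPM of HFpEF-scr and the 1099 CPM of control, and gave -0.24 ± 0.04 against control (edgeR, adjusted p = 0.00242). Ldhb averaged 1785 ± 48.4 CPM (SD, n = 5), between 1571 and 1934 CPM, and gave -0.12 ± 0.03 (edgeR, adjusted p = 0.0234). In neither gene did a library labelled HFpEF-FoxO1-sh reach the lowest control, and 12.1% of all genes showed no overlap. The call of Ldhb ended in 3 of 10 refits without 1 library, those without control 5 (adjusted p = 0.0679), HFpEF-FoxO1-sh 4 (0.0536) and HFpEF-FoxO1-sh 5 (0.0556). It also ended with the replicate number as a block (adjusted p = 0.0521). In this comparison 3 of 12 cardiomyocyte markers were called lower, with a median of -0.08. Of 12 fibroblast markers 3, the collagen genes Col1a1, Col1a2 and Col3a1, were called lower, at -0.74, -0.28 and -1.07, while the list's median was 0.02. Of 10 endothelial markers Cdh5 and of 3 atrial markers tested Nppa were called lower. Among macrophage markers 8 of 9 were called lower, with a median of -0.55, and their summed level, from 158 CPM upward with a median of 173, stayed below the 228 to 308 CPM of control in every library. The part of these in the members' values was not tested.

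Pgam2 had 440.0, 436, 442, 428 and 397 CPM in libraries 1 to 5 labelled HFpEF-FoxO1-sh, of which 3 exceeded control 4. Its value was -0.14 ± 0.05 (adjusted p = 0.089) against control and 0.07 ± 0.05 (adjusted p = 0.472) against HFpEF-scr. The first was called without control 4, at -0.17 (adjusted p = 0.039). It was also called with only the 2 compared groups fitted, at -0.14 ± 0.04 (adjusted p = 0.0419). Pfkm gave -0.00052 ± 0.04 against control with an interval from -5.27% to 5.48%. Of the members not called against control, intervals were widest for Eno1, from -34.9% to 11.6%, and narrowest for Pfkm and Pkm. These widths depend on the spread shared over all 14 libraries. With only the 2 compared groups fitted, the SE went from 0.18 to 0.13 for Eno1 and from 0.09 to 0.04 for Ldha. For Aldoa it went from 0.07 to 0.04 and for Tpi1 from 0.06 to 0.03, and these members were still not called.

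The lactate dehydrogenase pair was compared within each library, as the log2 ratio of the counts of Ldhb over Ldha, which does not depend on how libraries are scaled. Controls 1 to 5 had ratios of 1.80, 1.68, 1.86, 1.68 and 1.82. The HFpEF-scr libraries 1 to 4 had 0.93, 1.60, 1.57 and 1.40, all under the controls. Libraries 1 to 5 labelled HFpEF-FoxO1-sh had 1.63, 1.59, 1.68, 1.69 and 1.61. The HFpEF-scr mean was lower than the control mean by a difference of -0.39 (two-sided exact permutation test, p = 0.00794, adjusted p = 0.0476 over 6 ratio tests), and the first p is the smallest this design can give. Against HFpEF-scr, the libraries labelled HFpEF-FoxO1-sh were higher by 0.26 (exact permutation p = 0.0159, adjusted p = 0.0476), and against control they differed by -0.13 (exact permutation p = 0.0476, adjusted p = 0.0952). Without HFpEF-scr 1 the first 2 differences were -0.24 (exact permutation p = 0.0179) and 0.11 (exact permutation p = 0.0357), so that library moved both by over 1.5 times. The ratio uses the same counts as the tests of Ldhb and is not separate evidence. Per kilobase of principal transcript, Ldhb made up 82.2% ± 0.85 of both subunits in control (SD, n = 5), 77.7% ± 3.9 in HFpEF-scr (SD, n = 4) and 80.8% ± 0.46 under the HFpEF-FoxO1-sh label (SD, n = 5). In HFpEF-scr this share ran from 72.1%, in HFpEF-scr 1, to 80.4%. The shares depend on the length used: per kilobase of all annotated exons the means were 87.8%, 84.4% and 86.8%.

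**Figure D4:**
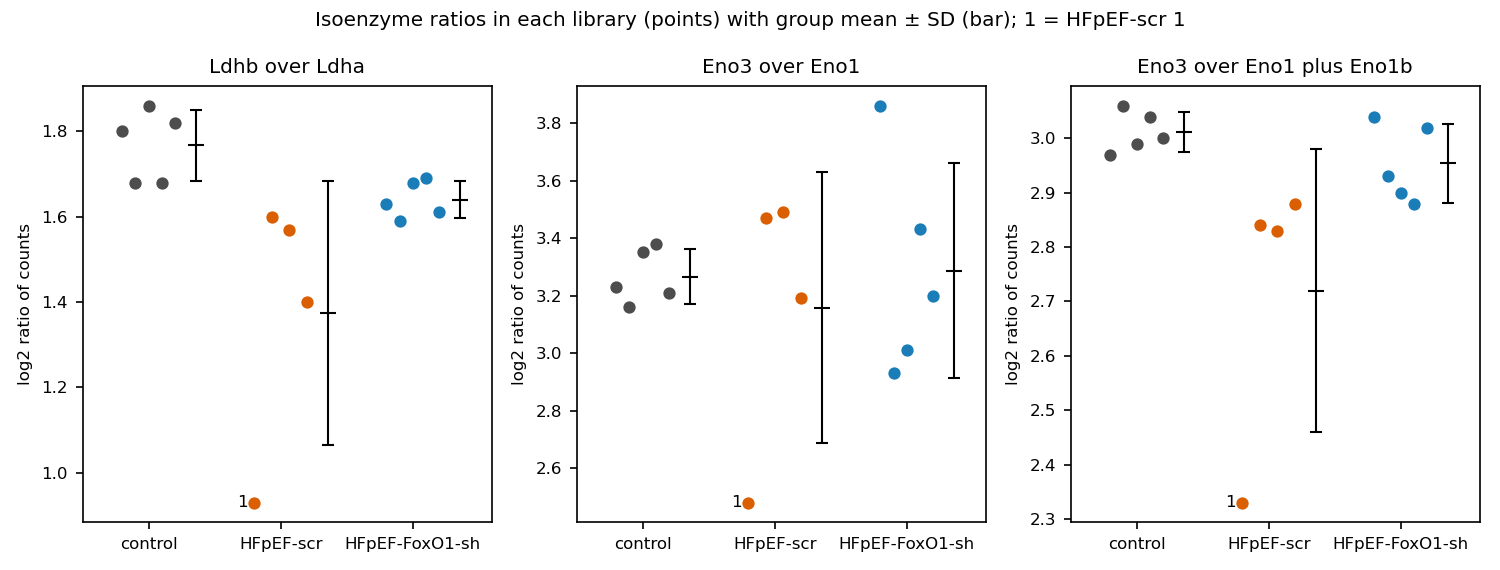
Log2 ratio of counts within each library for Ldhb over Ldha, Eno3 over Eno1, and Eno3 over the sum of Eno1 and Eno1b, with the group mean ± SD; 1 marks HFpEF-scr 1. All 4 HFpEF-scr libraries lie below the controls for Ldhb over Ldha, and the ratios of Eno3 over Eno1 draw together once Eno1b is added.

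The enolase pair is less certain, because reads of Eno1 were divided with the row Eno1b. Counts of Eno1 were not whole numbers in 12 of 14 libraries, while the sum of Eno1 and Eno1b was whole in all 14. Eno1b took between 0% of that sum, in HFpEF-FoxO1-sh 2, and 43.3%, in HFpEF-FoxO1-sh 1. As deposited, Eno1 stood at 118, 125, 108, 104 and 117 CPM in controls 1 to 5 and at 149.5, 66.4, 77.3 and 91.5 CPM in HFpEF-scr 1 to 4. Libraries 1 to 5 labelled HFpEF-FoxO1-sh had 68.2, 122, 118, 84.6 and 95.2 CPM, and all 3 groups overlapped. Summed with Eno1b, the spread narrowed to 136 ± 3.82 CPM in control (SD, n = 5) and 120.5 ± 7.60 CPM under the HFpEF-FoxO1-sh label (SD, n = 5). The HFpEF-scr sums were 165.5, 103, 122 and 114 CPM, with library 1 above every control and the other 3 below every control. Sums under the HFpEF-FoxO1-sh label ran from 108.0 to 128.3 CPM, all below the lowest control, at 131.3 CPM.

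The log2 ratio of Eno3 over Eno1 as deposited averaged 3.27 in control, 3.16 in HFpEF-scr and 3.29 under the HFpEF-FoxO1-sh label, and none of the 3 differences passed the test (exact permutation p = 0.81, 0.69 and 0.905). With Eno1b added, an alternative chosen after the data were seen, the ratios were 2.97 to 3.06 in control, 2.33 to 2.88 in HFpEF-scr and 2.88 to 3.04 under the HFpEF-FoxO1-sh label. The difference of HFpEF-scr from control was then -0.29 (exact permutation p = 0.00794), and -0.16 without HFpEF-scr 1 (exact permutation p = 0.0179). The libraries labelled HFpEF-FoxO1-sh differed from HFpEF-scr by 0.23 (exact permutation p = 0.00794), and by 0.10 without HFpEF-scr 1 (exact permutation p = 0.0893). The summed enolase row itself gave -0.11 ± 0.10 in HFpEF-scr against control (edgeR, adjusted p = 0.532) and -0.27 ± 0.06 without HFpEF-scr 1 (adjusted p = 0.0137). In HFpEF-FoxO1-sh against control it gave -0.18 ± 0.09 (edgeR, adjusted p = 0.233). Per kilobase of principal transcript, Eno3 made up 91.3% ± 0.20 of enolase in control (SD, n = 5), 89.4% ± 1.8 in HFpEF-scr (SD, n = 4) and 90.9% ± 0.42 under the HFpEF-FoxO1-sh label (SD, n = 5). In HFpEF-scr this share ran from 86.7%, in HFpEF-scr 1, to 90.5%. Per kilobase of all annotated exons the means were 96.1%, 95.3% and 96.0%. Aldoa was also divided with another row, Aldoart1, but its highest count was 49370 alone and 49371 with that row added.

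Calls in the lists that follow stand beside 7.37% of all genes in HFpEF-scr against control. The shares were 3.58% in HFpEF-FoxO1-sh against HFpEF-scr and 13.0% in HFpEF-FoxO1-sh against control. Without HFpEF-scr 1 the comparisons that include HFpEF-scr had shares of 8.00% and 1.79%, in that order. With the early response covariate they had 400 and 257 calls over 13588 genes. Of 14 other glycolytic genes tested, 3 fell and 1 rose in HFpEF-scr against control, with a median of -0.13. Gapdh, the dehydrogenase between the triose phosphates and Pgk1, fell from 4077 ± 157 CPM (SD, n = 5) to 3378 ± 352 (SD, n = 4), by 0.27 on the log2 scale with an SE of 0.06 (adjusted p = 0.0125), and stood at 3523 CPM under the HFpEF-FoxO1-sh label. Ldhd, which acts on D-lactate, fell by 0.19 (adjusted p = 0.0434), and Pfkl, the liver-type phosphofructokinase, rose by 0.31 (adjusted p = 0.0493). Without HFpEF-scr 1 the list had 5 falls, among them those of Hk1, Hk2, Gpi1 and Gapdh, and no rise. Ldhd was not called then, at -0.20 (adjusted p = 0.062). With the early response covariate 1 gene of the list was called lower and none higher. Gapdh (adjusted p = 0.0818), Ldhd (adjusted p = 0.0846) and Pfkl (adjusted p = 0.169) then lost their calls. In HFpEF-FoxO1-sh against HFpEF-scr only Pfkp, the platelet-type phosphofructokinase, was called in this list, at -0.63 ± 0.15 (adjusted p = 0.0361), and without HFpEF-scr 1 it gave -0.36 (adjusted p = 0.0505). With the early response covariate Pfkp was not called, at -0.65 (adjusted p = 0.0709), and 1 other gene of the list was called higher. Against control 4 of the 14 fell under the HFpEF-FoxO1-sh label: Gapdh, Pfkp and the hexokinases Hk1 and Hk3, the last at 1.47 CPM in control and 0.664 CPM there. The call of Pfkp ended with the covariate in this comparison too (adjusted p = 0.0535).

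Of 14 genes of glucose entry and its control, 4 fell in HFpEF-scr and none rose, with a median of -0.20, and all 4 encode glucose transporters. Slc2a4, the insulin-responsive transporter of muscle, fell from 536.5 ± 29.7 (SD, n = 5) to 419 ± 54.4 CPM (SD, n = 4), by 0.36 on the log2 scale with an SE of 0.07 (adjusted p = 0.00592). Slc2a1 fell by 0.67 (adjusted p = 0.00663), Slc2a8 by 0.41 (adjusted p = 0.0169) and Slc2a12 by 0.39 (adjusted p = 0.0451). Without HFpEF-scr 1 the first 3 of these were called and Slc2a12 was not (adjusted p = 0.0948). The same held with the early response covariate, with Slc2a12 at an adjusted p of 0.143. In HFpEF-FoxO1-sh against HFpEF-scr 2 genes rose, Slc2a8 by 0.37 (adjusted p = 0.0438) and Pfkfb1, which makes and removes an activator of phosphofructokinase, by 0.64 (adjusted p = 0.0443), and without HFpEF-scr 1 only Slc2a4 did, by 0.25 (adjusted p = 0.0359). With the early response covariate none of the 14 was called there, neither Slc2a8 (adjusted p = 0.0644) nor Pfkfb1 (adjusted p = 0.0597). Against control 2 fell, Slc2a1 and Slc2a12, and 1 rose, Pfkfb1.

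Of 16 genes of glycogen and of reverse steps, 1 rose and 2 fell in HFpEF-scr. Fbp2, the muscle fructose bisphosphatase that runs opposite to phosphofructokinase, went from 29.2 ± 7.65 CPM in control (SD, n = 5) to 55.8 ± 8.21 in HFpEF-scr (SD, n = 4) and 62.3 ± 3.15 under the HFpEF-FoxO1-sh label (SD, n = 5). Its log2 fold changes against control were 0.93 ± 0.14 (adjusted p = 0.00103) and 1.09 ± 0.13 (adjusted p = 6.39e-05). Pcx, pyruvate carboxylase, fell by 0.49 and by 0.40 on the log2 scale in the same comparisons (adjusted p = 2.41e-05 and 2.1e-05). Pygm, the glycogen phosphorylase of muscle, fell by 0.16 in HFpEF-scr (adjusted p = 0.0125). With the early response covariate Fbp2 and Pcx kept their calls in HFpEF-scr against control, and Pygm did not (adjusted p = 0.0589). Between the 2 HFpEF groups none of the 16 was called, and against control 5 rose under the HFpEF-FoxO1-sh label, Fbp2, Pgm2 and the phosphorylase kinase subunits Phka1, Phkb and Phkg1, while Pcx and Pygl fell. Pgm2 rose by 0.17 (adjusted p = 0.00834). Without HFpEF-scr 1 the falls in HFpEF-scr were 4, with Gys1 and Gyg of glycogen synthesis added to Pygm and Pcx.

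The 10 genes of the shuttles that carry reducing power of cytosolic NADH into mitochondria had a median of -0.13 in HFpEF-scr, with 2 called falls. Slc25a13, an aspartate-glutamate carrier, fell by 0.31 on the log2 scale (adjusted p = 0.00358) and Slc25a11, the oxoglutarate carrier, by 0.18 (adjusted p = 0.0139). Both were also called without HFpEF-scr 1. With the early response covariate Slc25a13 was called (adjusted p = 0.024) and Slc25a11 was not (adjusted p = 0.0878). Of these 10 none was called between the HFpEF groups, and 2 fell in HFpEF-FoxO1-sh against control, Slc25a13 by 0.17 (adjusted p = 0.0396) and Gpd2, the mitochondrial glycerol phosphate dehydrogenase, by 0.28 (adjusted p = 0.0266).

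Of 16 HIF targets outside glycolysis, 7 rose in HFpEF-scr and none fell, with a median of 0.30. Pdk1, which inhibits pyruvate dehydrogenase, rose from 276 ± 10.1 (SD, n = 5) to 340 ± 11.4 CPM (SD, n = 4), by 0.30 ± 0.04 (adjusted p = 0.000946). Mxi1, an antagonist of Myc, rose by 0.33 (adjusted p = 0.000551), Ndrg1 by 0.30 (adjusted p = 0.0198) and Ddit4, an inhibitor of mTOR signalling, by 1.23 ± 0.30 (adjusted p = 0.0234). Without HFpEF-scr 1 the list had 5 rises, those of these 4 and Kdm3a, and with the early response covariate 2, those of Pdk1 and Mxi1. Between the HFpEF groups 1 of 16 fell, P4ha1 by 0.44 (adjusted p = 0.0486), and without HFpEF-scr 1 none was called, with P4ha1 at -0.34 (adjusted p = 0.143). Against control Bnip3l, Egln1, Kdm3a, Pdk1 and Mxi1 rose under the HFpEF-FoxO1-sh label, Pdk1 by 0.35 (adjusted p = 5.92e-05) and Mxi1 by 0.27 (adjusted p = 0.000849).

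**Figure D5:**
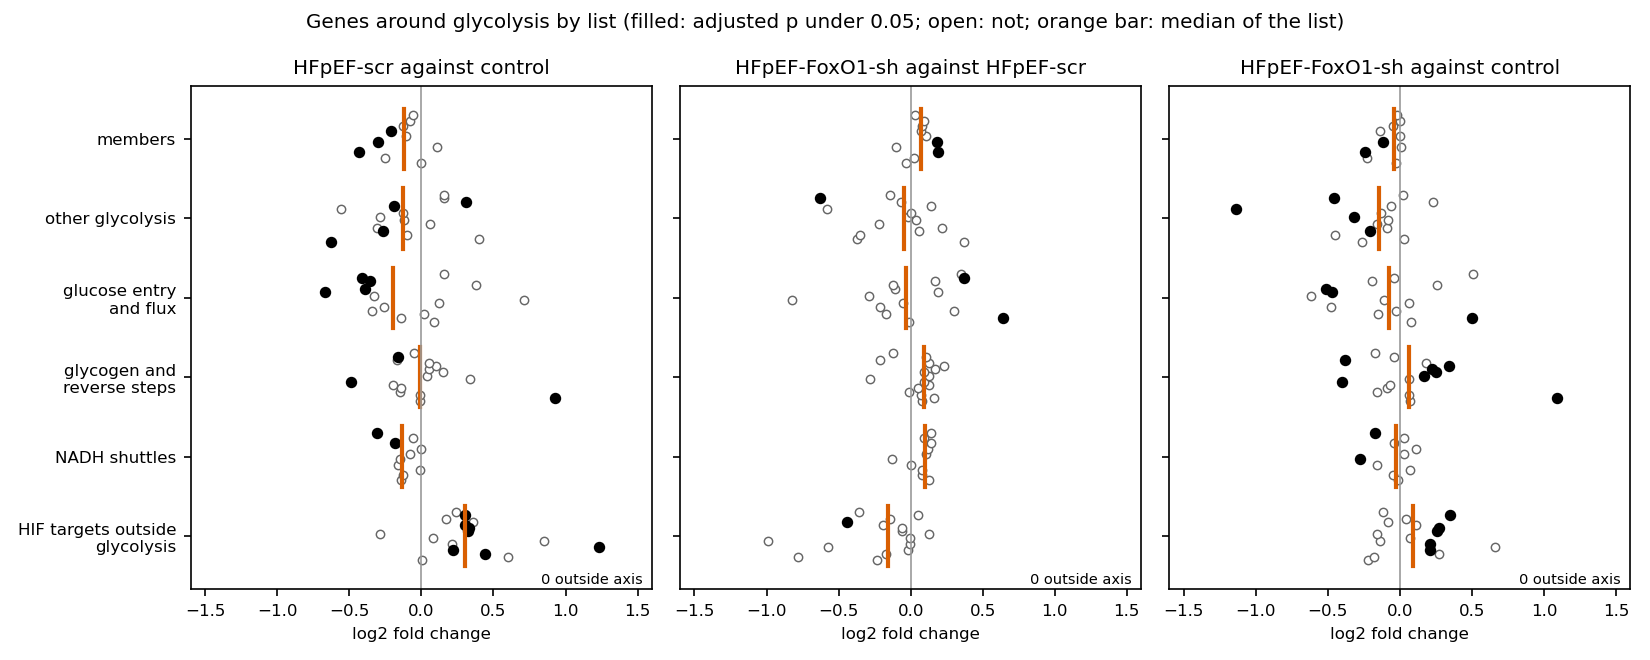
Log2 fold change of every tested gene of the 10 members and of the 5 other lists in the 3 comparisons, filled where the adjusted p was under 0.05, with the median of each list as an orange bar. In HFpEF-scr against control the medians lie at or below 0 for every list but the HIF targets, at 0.30.

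Genes with the pattern most like that of each called member were taken over 14 libraries among 11290 genes, as a description without a test, since groups, scaling and cell makeup are shared by all genes of a library. For Eno3 these were Ccbl2 (Pearson r = 0.978) and Ckm, the creatine kinase of muscle (r = 0.974). Ckm averaged 2191, 1722 and 1873 CPM in control, HFpEF-scr and the libraries labelled HFpEF-FoxO1-sh. For Ldhb they were Poldip2 (r = 0.975) and the mitochondrial dehydrogenase gene Hsd17b10 (r = 0.955). For Pgam2 they were Pgap2 (r = 0.948) and Gapdh (r = 0.941).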

How the data were processed

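The authors deposited expected counts per gene, made per the submitters' processing notes with Bowtie2 2.1.0 and RSEM 1.2.15 on mm10 (GRCm38); the annotation is not given in the sources used here. RSEM divides reads between similar genes, so some counts are not whole. Libraries were poly(A)-selected, per the labels' protocols. Expected counts were rounded and tested in edgeR 4.0.16 (R 4.3.3) with filterByExpr, TMM scaling and a quasi-likelihood fit of all 14 libraries, with one coefficient per group and no covariate. CPM is a count per 1000000 of the scaled library. The coefficient of biological variation was 0.0999 in common. Alternatives used DESeq2 1.42.0, limma 3.58.1 (voom), other filters, scaling, libraries, a block and a covariate. Ratios were tested by exact permutation of libraries. The fit was also run on simulated data with a set spread per gene and no outlying library. The outcome of that run is not given here, and no result rests on it. Members and lists were chosen with earlier results of these data known. The text names all members, up to 4 called genes of smallest p per pathway list (1 gene that this rule picks is not reported here), and the 2 most alike genes per called member. Other genes named were chosen after their values were seen, to spell out short counts or describe HFpEF-scr 1. Positions are of GENCODE vM21 on GRCm38. Strandedness of the counting is not given in the sources used here. Figures used matplotlib 3.10.9.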

Additional observations from a re-analysis of the deposited data

Results flagged for a closer look

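The log2 ratio of Eno3 over Eno1 plus Eno1b in HFpEF-scr 1 was 2.33, against 2.83 to 2.88 in the other 3 HFpEF-scr libraries, a gap beyond Dixon's 95% limit for 4 samples. Of 42 groups of values examined this was the 1 that passed, and chance alone passes about 1 in 20.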

How the results depend on the processing

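Over 20 alternatives the falls of Eno3 and Ldhb in HFpEF-scr against control kept their call, as did that of Eno3 in HFpEF-FoxO1-sh against control over 19. Over all 590 member values from alternatives, 521 kept direction and side of the threshold, 25 lost a call, 6 gained one and 38 changed sign, none of these called. In HFpEF-scr against control 5 members were called without HFpEF-scr 1, also with Eno1 and Eno1b summed, and leaving out each library gave 2 to 5. In HFpEF-FoxO1-sh against HFpEF-scr 1 member, Ldhb, was called with no filter on low counts, with the 2 compared groups only, with the replicate block, with the early response covariate, and with Eno1 and Eno1b summed without HFpEF-scr 1. Without HFpEF-scr 1 and 2 together 0 were called, and leaving out each library gave 1 to 2. In HFpEF-FoxO1-sh against control the replicate block left 1 call, and leaving out each library gave 1 to 3. With the 2 compared groups only, Pgam2 was called there besides Eno3 and Ldhb.

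Replicate numbers gave no sign of pairing: deviations of same-numbered libraries correlated at -0.19 to 0.11 and 2 of 13 correlated best with their own number. The numbers that head the deposited columns have a gap after HFpEF-scr 1. Equal replicate numbers thus need not mark matched samples, and the check cannot exclude a pairing. With the replicate block the log2 ratio of Ldhb over Ldha differed by -0.38, 0.27 and -0.13 (exact sign permutation p = 0.125, 0.25 and 0.125) in HFpEF-scr against control, HFpEF-FoxO1-sh against HFpEF-scr and HFpEF-FoxO1-sh against control, a test too small to pass the threshold or bear on stability. Over refits without 1 library the last 2 ran from 0.11 to 0.34 and from -0.15 to -0.10. The ratio of Eno3 over Eno1 gave -0.29, 0.23 and -0.06 in these comparisons with Eno1b added, and 0.08 and -0.06 in the first 2 without HFpEF-scr 1 and 2 together. Without 1 library it ran from -0.22 to 0.12, from -0.10 to 0.24 and from -0.12 to 0.11.

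The sign changes were these. In HFpEF-FoxO1-sh against control Pkm gave -0.00062 with DESeq2 size factors, -0.0022 with at least 10 counts in every library and -0.0007 in DESeq2, and Pfkm gave 0.00075 in limma voom and 0.00066 with the replicate block. Without HFpEF-scr 1 and 2 together Ldha gave -0.02 in HFpEF-scr against control, and Aldoa 0.06 and Ldha 0.04 in HFpEF-FoxO1-sh against HFpEF-scr. With Eno1 and Eno1b summed, Eno1 gave -0.07 in the latter. With that sum and without HFpEF-scr 1, Ldha gave -0.06 in the former, and Aldoa 0.09 and Ldha 0.07 in the latter. Without 1 library, HFpEF-scr against control ran from -0.13 to 0.05 for Aldoa and from -0.06 to 0.19 for Ldha. HFpEF-FoxO1-sh against HFpEF-scr ran from -0.09 to 0.09 for Aldoa, -0.01 to 0.14 for Tpi1, -0.12 to 0.32 for Eno1 and -0.17 to 0.07 for Ldha. HFpEF-FoxO1-sh against control ran from -0.02 to 0.03 for Pfkm and for Pkm, and from -0.01 to 0.03 for Ldha. The cause was not tested.

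Calls over all genes moved too. HFpEF-scr against control had 1001 in the reported fit, 504 with the compared groups only, 400 with the early response covariate, 560 without HFpEF-scr 1 and 2 together, and 537 to 1106 without 1 library. HFpEF-FoxO1-sh against HFpEF-scr had 486, 857 in DESeq2, 291 with the replicate block, 257 with the covariate, 54 without HFpEF-scr 1 and 2 together, and 162 to 668 without 1 library.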

Other observations

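Bpgm, which makes the 2,3-bisphosphoglycerate of red cells, and Pfkl were chosen after their values were seen. Bpgm stood at 82.9 CPM in HFpEF-scr 1 and at 22.6 to 29.1 CPM in the other HFpEF-scr libraries. Pfkl stood at 284 CPM in HFpEF-scr 1 and at 185 to 212.5 CPM in the others, and its log2 fold change in HFpEF-scr against control was 0.16 without that library (edgeR, adjusted p = 0.0805). Pgam1, the brain-type partner of Pgam2, was not called there, with 0.16 ± 0.14.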
